A study of Homo sapiens with 6 samples.

Results

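The genes described here encode the vascular endothelial growth factors VEGFA, VEGFB, VEGFC and PGF and the platelet-derived growth factors PDGFA, PDGFB, PDGFC and PDGFD. They were chosen by name, as the rows of the deposited expression table whose symbol is one of these 8. All 8 were found, each in 1 row, among 23344 rows. The libraries came from Huh7, an established human liver cancer cell line, and all cells had received a lentivirus. In 3 libraries the virus served to knock down VersicanV1, the V1 form of the matrix proteoglycan that VCAN encodes, and these libraries bear the name of a single hairpin, sh2. In the other 3 libraries the virus was a control, named shNC. Whether the infected cells were a pool or a clone is not given in the labels.

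VEGF and PDGF ligands are secreted, disulfide-linked dimers of one structural family. VEGFA drives the growth of blood vessel endothelium through the receptors encoded by FLT1 and KDR, PGF and VEGFB bind the FLT1 product, and VEGFC is the main growth factor of lymphatic vessels, through FLT4. PDGF dimers act on the receptors encoded by PDGFRA and PDGFRB, which are typical of mesenchymal cells, and in the liver they stimulate hepatic stellate cells and pericytes. Hepatocyte-derived tumours commonly secrete such ligands and carry few of the receptors themselves.

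Of the 8 ligand genes, PDGFA rose in the knockdown libraries, with a mean 1.95 times that of the control libraries, and none fell. The other 7 did not pass the test. Values are treated as FPKM, fragments scaled by transcript length and library size, so levels can be compared between genes. The test was limma on log2(value + 1) over all 13696 genes that reached 1 in 3 or more libraries, and "rose" and "fell" mean a Benjamini-Hochberg adjusted p below 0.05. All 8 ligand genes passed that filter. By this rule 8.08% of all genes tested were called, 4.15% as higher and 3.94% as lower, so 1 ligand gene of 8 is not far from the background. At an unadjusted p below 0.05, 2 ligand genes were higher (PDGFA and PDGFB) and 0 were lower. Passing that threshold was common among all genes, since PDGFB stood only at place 3335 of the 13696 in order of p. The share of all genes passing it in each direction was not computed, so these 2 genes add no evidence of a rise beyond the background. The median log2 fold change of the 8 genes was 0.15, against -0.03 over all genes tested. By GENCODE release 29 the genes lie on chromosomes 6 (VEGFA), 11 (VEGFB and PDGFD), 4 (VEGFC and PDGFC), 14 (PGF), 7 (PDGFA) and 22 (PDGFB).

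VCAN, the targeted gene, had values of 1.90, 1.74 and 1.64 in the knockdown libraries and 4.79, 6.24 and 8.10 in the control libraries (log2 fold change -1.39, SE 0.19, adjusted p = 0.0103). The hepatocyte markers ALB and AFP were among the most abundant transcripts in every library, and 10 of 10 hepatocyte and hepatoma markers were tested, of which 2 rose and 1 fell. TTR, the transthyretin gene, fell (log2 fold change -1.19, limma adjusted p = 0.00770, called in all 12 alternatives). FGB, a fibrinogen chain gene (0.70, limma adjusted p = 0.0188), and APOA1, an apolipoprotein gene (1.05, limma adjusted p = 0.0325), rose and were called in 8 and 5 of 12 alternatives, while SERPINA1 (0.56) and HNF4A (-0.33) did not pass. The 13 mitochondrially encoded genes made up 23.8 to 31.2% of the summed values in the knockdown libraries and 16.0 to 19.2% in the control libraries. Knockdown replicate 2 also held transcripts of blood cells, described beside the ligands below. Among short genes with a single transcript, low values fell on steps, and 1 read over 1 kilobase was worth 0.0765 to 0.0939 in the 6 libraries, so the estimated depth of the shallowest library, knockdown replicate 1, was 0.814 of the deepest. The lengths of annotated coding transcripts and this step put 5 to 54 reads per library behind PGF, 16 to 175 behind PDGFD, 48 to 427 behind PDGFA and 157 to 2852 behind VEGFA.

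The start of PDGFA is shown first because it is the only ligand gene that was called. The PDGFA promoter is known for a GC-rich element just before its TATA box, to which zinc finger factors of the SP and EGR families bind. RefSeq lists 4 starts for PDGFA, and the sequence given is the stretch just before the start that has the TATA box, on chromosome 7. It is set beside the same stretch of VEGFC, which was not called and lay next to PDGFA in the order of levels of the knockdown libraries. Both are 113 bases long, from RefSeq on build GRCh38.p14, 5′ to 3′ in the direction of the gene, and end 1 base before the start. No exon of GENCODE release 29 overlaps them. Capitals mark the letters GCGGGGGCG, which match an EGR-type site, and TATAA, on either strand.
PDGFA, chr7:519847-519959, minus strand: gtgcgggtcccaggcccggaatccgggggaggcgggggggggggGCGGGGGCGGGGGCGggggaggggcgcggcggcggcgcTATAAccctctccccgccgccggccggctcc
VEGFC, chr4:176792923-176793035, minus strand: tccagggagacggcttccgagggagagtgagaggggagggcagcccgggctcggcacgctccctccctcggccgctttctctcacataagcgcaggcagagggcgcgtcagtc

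The PDGFA stretch held GCGGGGGCG at 2 overlapping positions and TATAA at 1, and its GC content was 85.8%. The VEGFC stretch held neither, with a GC content of 69.0%. The stretch of VEGFB, also not called, overlaps an exon and is not shown. It held GCGGGGGCG at 1 position, GGGCGG at 4 and TATAA at 0, with a GC content of 85.8%. The stretches of PGF and PDGFD held GCGGGGGCG and TATAA at 0 positions. GCGGGGGCG therefore does not set PDGFA apart from all ligand genes that were not called, since VEGFB held it too. Among the matched ligand genes TATAA was found in PDGFA alone. Over all 35116 RefSeq starts, 3.12% of stretches of this length held GCGGGGGCG and 9.72% held TATAA. The PDGFA start was chosen for its TATAA, so that match was fixed in advance and cannot be weighed against this share. The other PDGFA starts held TATAA at 0 positions and GCGGGGGCG at 1, 0 and 0. The GC box to which SP factors bind, GGGCGG, was found at 3 positions of the PDGFA stretch and 0 of the VEGFC stretch. It was also at 2 positions of each PGF stretch and 1 of the PDGFD stretch, beside the 4 of VEGFB. Of all stretches 33.1% held at least 1 GGGCGG, which can overlap GCGGGGGCG. The hypoxia response core ACGTG was in neither the PDGFA nor the VEGFC stretch, and in 9.94% of all stretches. A match of letters is a description and does not show that a factor bound there, nor which start Huh7 cells used. The table of starts matched 5 of the 8 genes; VEGFA, PDGFB and PDGFC were not matched.

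PDGFA encodes the A chain, whose homodimer binds the receptor of PDGFRA. PDGFA (ENSG00000197461) had values of 12.52, 12.29 and 14.18 in knockdown replicates 1, 2 and 3, and 7.54, 6.65 and 5.81 in control replicates 1, 2 and 3. Every knockdown library was above every control library. The means were 12.997 ± 1.03 in knockdown and 6.67 ± 0.865 in control libraries (SD, n = 3 each), with a log2 fold change of 0.87 (SE 0.14, 95% interval 0.55 to 1.19, limma adjusted p = 0.0154). In order of p it was gene 162 of the 13696 tested, and 3.57% of them had a larger log2 fold change. In a bulk library, more RNA per cell and more cells that express the gene cannot be told apart. With the mitochondrial genes left out of each library's scaling, the log2 fold change was 0.97 (limma adjusted p = 0.0111).

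The PDGFA call depended on which library was left out. It was kept without control replicate 1 (limma adjusted p = 0.0445). Without knockdown replicate 1 it was also kept (limma adjusted p = 0.00494, in a fit where 24.5% of all genes were called). It was lost without control replicate 2 (adjusted p = 0.0743), control replicate 3 (adjusted p = 0.0526), knockdown replicate 2 (adjusted p = 0.0571) or knockdown replicate 3 (adjusted p = 0.0567), while the log2 fold change lay between 0.79 and 0.95 whichever library was left out. Over 12 alternatives the gene was called in 8, with adjusted p from 0.00494 to 0.0743. The gene was still called with no filter on low values (limma adjusted p = 0.0476), where 0.947% of genes were called.

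PDGFB encodes the B chain, which binds both PDGF receptors and recruits pericytes to vessels. PDGFB had values of 8.09, 6.63 and 8.03 in knockdown and 5.17, 6.70 and 4.57 in control libraries. The groups overlapped by a narrow margin, since control replicate 2 was just above knockdown replicate 2. The log2 fold change was 0.41 (SE 0.17, 95% interval 0.04 to 0.79, limma adjusted p = 0.142), and it was positive in all 12 alternatives, none of which gave a call.

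PDGFC and PDGFD encode ligands with an additional CUB domain that has to be cleaved off before they bind receptors, mainly those of PDGFRA and PDGFRB. PDGFC had values of 9.75, 9.16 and 8.45 in knockdown and 8.55, 9.01 and 6.95 in control libraries, with overlapping groups (log2 fold change 0.15, 95% interval -0.18 to 0.47, limma adjusted p = 0.530). PDGFD had values of 3.44, 2.87 and 1.95 in knockdown and 2.62, 2.77 and 3.5 in control libraries. Knockdown replicate 3 was the lowest and the groups overlapped (log2 fold change -0.09, 95% interval -0.54 to 0.35, limma adjusted p = 0.791). Neither interval includes a change of the size estimated for PDGFA.

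VEGFA had the highest level of the 8 genes in every library. VEGFA (ENSG00000112715) had values of 43.81, 60.77 and 61.70 in knockdown replicates 1, 2 and 3, and 43.24, 43.36 and 49.05 in control replicates 1, 2 and 3. Knockdown replicates 2 and 3 were above all controls, while knockdown replicate 1 lay among them. The means were 55.4 ± 10.1 and 45.2 ± 3.32 (SD, n = 3 each), and the log2 fold change was 0.27 (SE 0.15, 95% interval -0.07 to 0.62, limma adjusted p = 0.267). Without knockdown replicate 1, the shallowest library, it was 0.43 and VEGFA was called (adjusted p = 0.0227, in a fit where 24.5% of all genes were called, 11.7% as higher). Over 12 alternatives its adjusted p ranged from 0.0227 to 0.575.

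VEGFB, which acts through FLT1 and has been tied to fatty acid uptake, had values of 23.09, 22.27 and 28.53 in knockdown and 28.38, 20.08 and 18.19 in control libraries. The groups overlapped over most of their ranges (log2 fold change 0.16, 95% interval -0.25 to 0.57, limma adjusted p = 0.595). VEGFC had values of 10.30, 12.13 and 11.47 in knockdown and 12.15, 13.14 and 11.45 in control libraries. Knockdown replicate 1 was the lowest and control replicate 2 the highest, and the log2 fold change was -0.11 (95% interval -0.40 to 0.18, limma adjusted p = 0.612).

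PGF, placenta growth factor, had the lowest level of the 8. Its values were 0.72, 0.61 and 1.28 in knockdown and 1.49, 1.22 and 2.25 in control libraries, with knockdown replicate 3 just above control replicate 2. It reached 1 in all control libraries and in knockdown replicate 3 alone, so it passed the filter through the control group. The log2 fold change was -0.50 (SE 0.22, 95% interval -1.01 to 0.004, limma adjusted p = 0.173). With so few reads behind these values their precision is limited. FIGF, which encodes the relative VEGFD and is not one of the 8 genes, had values from 0.19 to 0.70 in knockdown and from 0.07 to 0.54 in control libraries and was not tested.

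**Figure D1:**
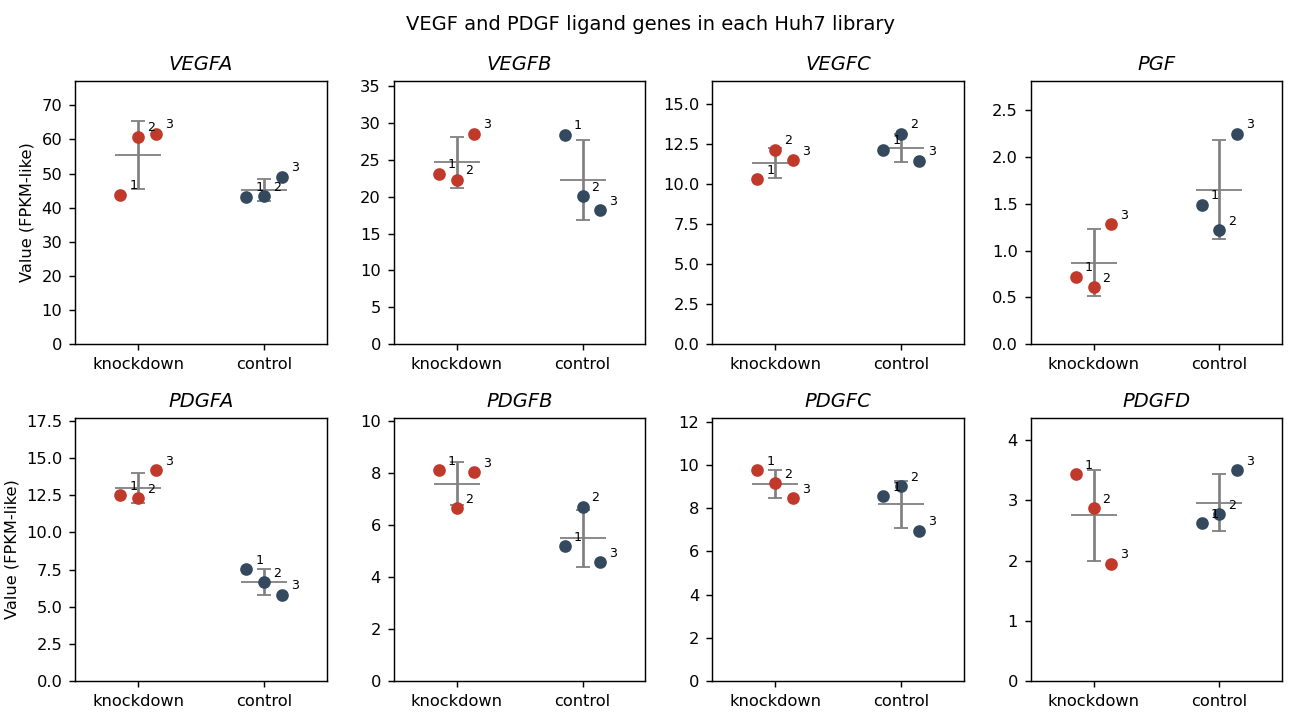
Value (FPKM-like, vertical axis from 0) of each ligand gene in each library, with knockdown left of control, numbers for replicates, horizontal marks for the mean and bars for the SD of 3 libraries. PDGFA is the one gene whose groups do not overlap, at 12.29 to 14.18 in knockdown and 5.81 to 7.54 in control libraries, while in VEGFA knockdown replicate 1 (43.81) lies among the controls.

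**Figure D2:**
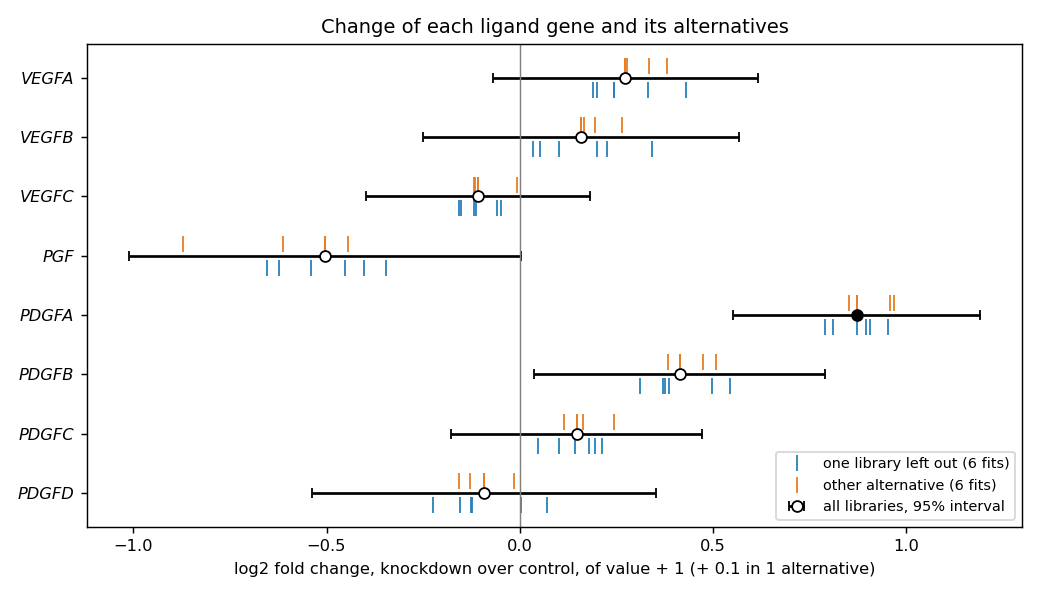
log2 fold change of value + 1 (horizontal axis, knockdown over control) of each ligand gene, with its 95% interval; a filled circle marks an adjusted p below 0.05, and short ticks give the estimate with 1 library left out (lower ticks) or under another processing alternative (upper ticks). PDGFA lies at 0.87 with its ticks on the same side of 0, and PDGFD is the gene whose ticks fall on both sides of 0.

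Among the 8 genes, PDGFA was the one whose groups did not overlap, against 33.1% of all genes tested, 14.4% with knockdown higher and 18.7% with knockdown lower. In the control libraries the order of mean levels was VEGFA, VEGFB, VEGFC, PDGFC, PDGFA, PDGFB, PDGFD and PGF. In the knockdown libraries PDGFA stood after VEGFB and ahead of VEGFC, whose mean was 11.3, and the remaining order was kept. The ranges of PDGFC, PDGFA and PDGFB overlapped between neighbours in the control libraries. In the knockdown libraries each gene lay apart from the next one in the order.

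A ratio of 2 genes within a library does not depend on how that library was scaled, so all 28 pairs of ligand genes were compared in this way. In 12 pairs the groups did not overlap, and PDGFA was in 7 of them, which are all of its pairs. These 7 pairs use the same PDGFA values, whose groups were already apart, so they are not separate results. No share over pairs of all genes was computed, so the count has no background. The log2 ratio of PDGFA to PDGFC was 0.36, 0.42 and 0.75 in knockdown and -0.18, -0.44 and -0.26 in control libraries, a difference of 0.80. That of VEGFC to PDGFA was -0.28, -0.02 and -0.31 in knockdown and 0.69, 0.98 and 0.98 in control libraries, a difference of -1.09. PDGFA was thus the lower of both pairs in the control libraries and the higher in the knockdown libraries. That of PDGFA to PDGFB was 0.63, 0.89 and 0.82 in knockdown and 0.54, -0.01 and 0.35 in control libraries, a difference of 0.49. That of VEGFA to PDGFA was 1.81, 2.31 and 2.12 in knockdown and 2.52, 2.70 and 3.08 in control libraries, so VEGFA exceeded PDGFA in all 6 libraries by a smaller margin in each knockdown library than in any control library. PGF was apart from 4 of its 7 partners, VEGFA, VEGFB, PDGFA and PDGFB, and lower relative to each in the knockdown libraries. These 4 pairs use the same PGF values, which rest on few reads. PGF also passed the filter through the control group, so its pairs are a description. The pair of VEGFA and VEGFB overlapped, at 0.92, 1.45 and 1.11 in knockdown and 0.61, 1.11 and 1.43 in control libraries. The exact two-sided permutation p of each pair whose groups did not overlap was 0.1, the smallest that 3 libraries against 3 allow, and 0.233 when adjusted over the 28 pairs.

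The makeup of the PDGF-type transcripts was described on the same per-length scale. PDGFA made up 37.0, 39.7 and 43.5% of the summed PDGF-type values in knockdown and 31.6, 26.5 and 27.9% in control libraries. PDGFC, the largest share in the control libraries at 35.0% ± 1.42, stood at 28.1% ± 1.95 in the knockdown libraries (SD, n = 3 each). The share of PDGFB was 23.3% ± 1.69 and 23.4% ± 2.81 in knockdown and control libraries. The summed PDGF-type value was 33.80, 30.95 and 32.61 in knockdown and 23.88, 25.13 and 20.83 in control libraries, so the smaller share of PDGFC went with a like level of PDGFC and a larger sum.

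Among the VEGF-type transcripts, VEGFA made up 59.9% ± 3.61 in knockdown and 55.7% ± 4.94 in control libraries, with overlapping groups. VEGFC made up 12.3% ± 1.08 and 15.1% ± 1.55, and PGF 0.935% ± 0.303 and 2.03% ± 0.654 (SD, n = 3 each), with groups that did not overlap. PGF had few reads and passed the filter through the control group, so its share is a description. The summed VEGF-type value was 77.92, 95.78 and 102.98 in knockdown and 85.26, 77.80 and 80.94 in control libraries. For 5 of the 8 shares (PDGFA, PDGFC, PDGFD, VEGFC and PGF) the groups did not overlap, each with an exact two-sided permutation p = 0.1, the smallest possible, and 0.16 when adjusted over the 8. Shares of one sum move against each other and are not independent. No such shares were computed for other genes, so this count also has no background.

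**Figure D3:**
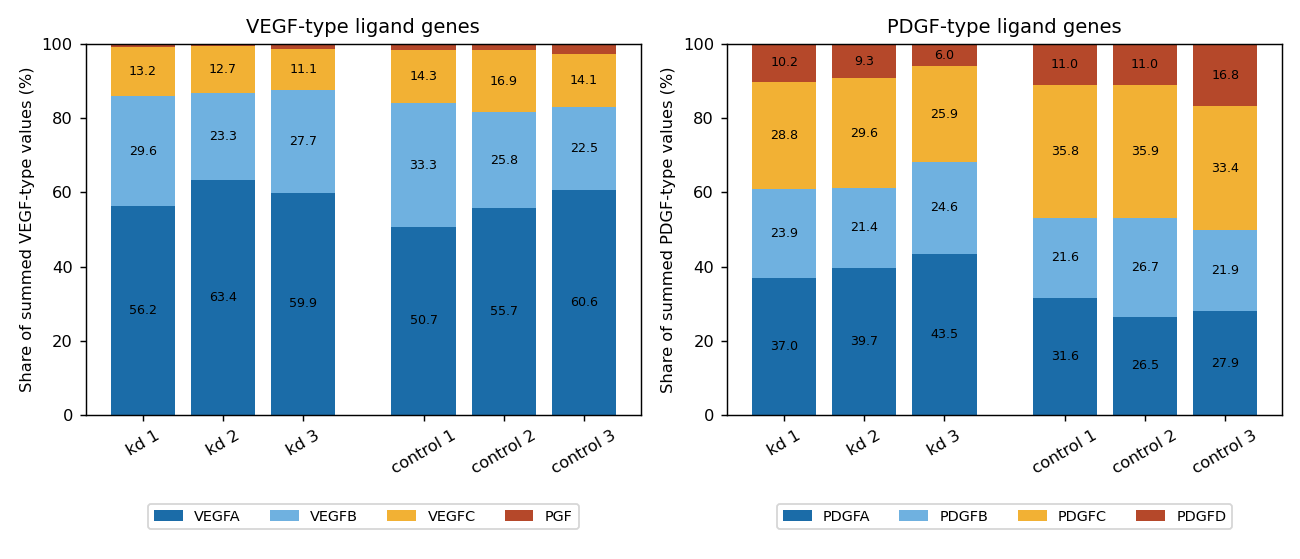
Share of each gene (%, vertical axis) in the summed VEGF-type values (left) and PDGF-type values (right) of each library, with knockdown libraries (kd) left of control libraries. PDGFA takes 37.0 to 43.5% of the PDGF-type sum in knockdown and 26.5 to 31.6% in control libraries, and VEGFA is the largest VEGF-type share in all 6.

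The receptor genes FLT1, KDR, FLT4, PDGFRA and PDGFRB were low, at 1.01 or less in every library. PDGFRA, the receptor gene for the PDGFA homodimer, had values of 0.13, 0.43 and 0.11 in knockdown and 0.69, 0.60 and 0.67 in control libraries, all below the filter. Without the filter PDGFRA did not pass (log2 fold change -0.44, limma adjusted p = 0.158), although the groups did not overlap. PDGFRB reached 1.01, FLT1 0.18, FLT4 0.27 and KDR 0.17 at most, each of the last 2 in knockdown replicate 2. Of 8 receptor and co-receptor genes 3 were tested, 1 rose and 0 fell. The one that rose was NRP2, the neuropilin co-receptor of VEGFC, at 6.33, 8.46 and 9.09 in knockdown and 2.63, 4.29 and 3.51 in control libraries (log2 fold change 1.00, SE 0.19, limma adjusted p = 0.0233). Its call ended when low genes were kept in (adjusted p = 0.0634) and when any 1 library other than knockdown replicate 1 was left out (adjusted p from 0.0631 to 0.0821). NRP1, the co-receptor of VEGFA, had a log2 fold change of 0.08 (limma adjusted p = 0.812).

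Other cell types can supply such ligands. Of 10 endothelial markers 3 were in the table, and their summed value was 0.39 to 0.48 in knockdown and 0.24 to 0.59 in control libraries. Of 10 markers of stellate cells, pericytes and fibroblasts 9 were in the table, and 6 stayed below 1 in every library, ACTA2, DES and CSPG4 among them. The sum of this list was 152 to 177 in knockdown and 166 to 189 in control libraries, nearly all of it from the lumican gene LUM; RGS5, a pericyte marker, reached 3.98 in knockdown and 4.24 in control libraries. Platelets and leukocytes store or make PDGF and VEGF, and several of their marker genes were found mainly in 1 library. In knockdown replicate 2 PPBP, PF4, S100A8, S100A9, NKG7 and PTPRC were at 11.36, 2.76, 17.90, 30.57, 5.54 and 1.96. In the other 5 libraries PPBP and S100A8 were listed at 0, PF4 reached 0.60, S100A9 4.13, NKG7 0.10 and PTPRC 0.16, while CD68 was at 0.97 or more in all 6. The sum of the 11 such markers in the table was 41.9 to 141 in knockdown and 21.2 to 28.6 in control libraries. Outside knockdown replicate 2 most of that sum came from LYZ. LYZ was at 44.53, 68.21 and 37.79 in knockdown and 18.30, 24.72 and 24.84 in control libraries, so it was not confined to 1 library. Of the 3 tested, LYZ, the lysozyme gene, rose (log2 fold change 1.08, limma adjusted p = 0.0277). The LYZ call was lost without knockdown replicate 2 (0.84, adjusted p = 0.0688), with low genes kept in (adjusted p = 0.0736), and without any 1 control library (adjusted p from 0.0597 to 0.0915). PDGFA and PDGFB were lower in knockdown replicate 2 than in the other knockdown libraries, at 12.29 and 6.63, and the log2 fold change of PDGFA without that library was 0.91, with its call lost (limma adjusted p = 0.0571). VEGFA was as high in knockdown replicate 3 as in replicate 2, at 61.70 and 60.77. The part of blood cell transcripts in the ligand values, and in the other results of the knockdown group, was not tested.

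The genes around the ligands were read as lists against the 4.15% of all genes called higher and 3.94% called lower. Of 16 genes that process, hold or trap these ligands 13 were tested, 2 rose and 0 fell (at an unadjusted p below 0.05, 4 were higher and 2 lower). Those that rose were A2M, the protease inhibitor alpha-2-macroglobulin, which binds PDGF (log2 fold change 1.08, SE 0.20, limma adjusted p = 0.0217), and SPARC, a matrix protein gene whose product binds PDGF chains (1.65, SE 0.37, limma adjusted p = 0.0346). SPARC was at 3.09, 6.57 and 6.78 in knockdown and 0.61, 0.42 and 2.40 in control libraries, so it passed the filter mainly through the knockdown group. FURIN, which cleaves the precursors of PDGFA, PDGFB and VEGFC, had a log2 fold change of 0.22 (limma adjusted p = 0.308), and PCSK6, a related convertase gene, one of -0.52 (adjusted p = 0.0692). HSPG2, the perlecan gene (0.42, adjusted p = 0.0826), and THBS1, the thrombospondin 1 gene (0.63, adjusted p = 0.0933), did not pass. The count that rose was 0 with low genes kept in (limma adjusted p = 0.0588 for A2M and 0.0886 for SPARC) and without control replicate 1 or 2 or knockdown replicate 2 or 3, 1 without control replicate 3, and 5 without knockdown replicate 1, where 2 also fell.

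VEGFA is the best known target of the hypoxia-inducible factors. Of 11 genes of these factors and their regulators 9 were tested, and 0 rose and 0 fell by limma, also with any 1 library left out (at an unadjusted p below 0.05, 0 were higher and 1 lower). HIF1A was at 159.96, 133.67 and 118.59 in knockdown and 140.97, 208.03 and 177.58 in control libraries (log2 fold change -0.34, limma adjusted p = 0.210). EPAS1, ARNT, HIF1AN and EGLN3 had log2 fold changes of -0.12, 0.24, -0.43 and -0.14. Of 20 other hypoxia target genes 18 were tested, 2 were called higher and 0 lower, with a median log2 fold change of 0.09, against 0.27 for VEGFA itself. BHLHE40, a transcriptional repressor gene, rose by 1.39 on the log2 scale (SE 0.22, limma adjusted p = 0.0157). The other call was CA9, the carbonic anhydrase IX gene, at 1.53, 2.34 and 6.40 in knockdown and 0, 0.20 and 0.27 in control libraries. CA9 entered the test through the knockdown libraries alone, so it could be called in 1 direction only, and its call is a description. With low genes kept in, it did not pass (limma adjusted p = 0.0724). Neither SLC2A1 (-0.60) nor DDIT4 (0.60) nor NDRG1 (0.60) passed the test. The count called higher was 0 with low genes kept in (BHLHE40 at limma adjusted p = 0.0511) and without control replicate 1 or 2, and 1 without control replicate 3. Without any 1 knockdown library CA9 was not tested, and BHLHE40 was called in each of these fits. Without knockdown replicate 1, where 24.5% of all genes were called, NDRG1 was also called higher and SLC2A1 lower.

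The VEGFA messenger RNA is also controlled through its decay. Of 6 genes of proteins that bind it, all tested, 2 rose and 1 fell. Those that rose were ZFP36, the gene of tristetraprolin, which speeds the decay of VEGFA messenger RNA (log2 fold change 0.78, SE 0.14, limma adjusted p = 0.0218), and its relative ZFP36L1 (0.99, SE 0.21, limma adjusted p = 0.0324). HNRNPA2B1 fell (-0.43, SE 0.11, limma adjusted p = 0.0499), while HNRNPL and ELAVL1, the gene of the stabilising protein HuR, were at -0.29 and -0.37 on that scale without passing. Without any 1 library except knockdown replicate 1 the counts were 0 and 0. Without knockdown replicate 1, where 24.5% of all genes were called, they were 2 higher and 3 lower. With low genes kept in, the counts were also 0 and 0 (limma adjusted p = 0.0587 for ZFP36 and 0.0832 for ZFP36L1). No gene of the list was called lower under quantile normalization, the replicate block, rescaling, or limma without trend and robust moderation.

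Of 27 other factors, most of them secreted, that promote or restrain vessel growth 18 were tested, and by limma 3 rose and 0 fell. The median log2 fold change of the 18 was 0.37. At an unadjusted p below 0.05, which was common among all genes, 9 were higher and 1 lower. IL8, an angiogenic chemokine gene, rose by 1.85 (SE 0.15, limma adjusted p = 0.00190) and EFNB2, the ephrin B2 gene, by 1.24 (SE 0.16, limma adjusted p = 0.0100) on the log2 scale, and both were called in all 12 alternatives. IL8 lay at 215.54, 249.19 and 287.47 in knockdown libraries, above VEGFA in each, and at 73.62, 74.11 and 57.92 in control libraries, also above VEGFA in each. SEMA3B, a semaphorin gene, rose (1.03, SE 0.24, limma adjusted p = 0.0370) but was called in 4 of 12 alternatives. That call was lost with low genes kept in (adjusted p = 0.0905), with the replicate block (adjusted p = 0.0787), without trend and robust moderation, and without any 1 library except knockdown replicate 1 (adjusted p from 0.0591 to 0.135). FGF19, a hormone-like growth factor gene, did not pass (1.21, adjusted p = 0.0516), nor did HBEGF, the gene of a heparin-binding growth factor (0.95, adjusted p = 0.0749). The count that rose was 8 without knockdown replicate 1, where 11.7% of all genes were called higher. It was 2 without any 1 other library, where 56 to 244 of all genes were called. It was 2 with low genes kept in or without trend and robust moderation, and 5 after rescaling. The count that fell was 0 in all 12 alternatives.

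**Figure D4:**
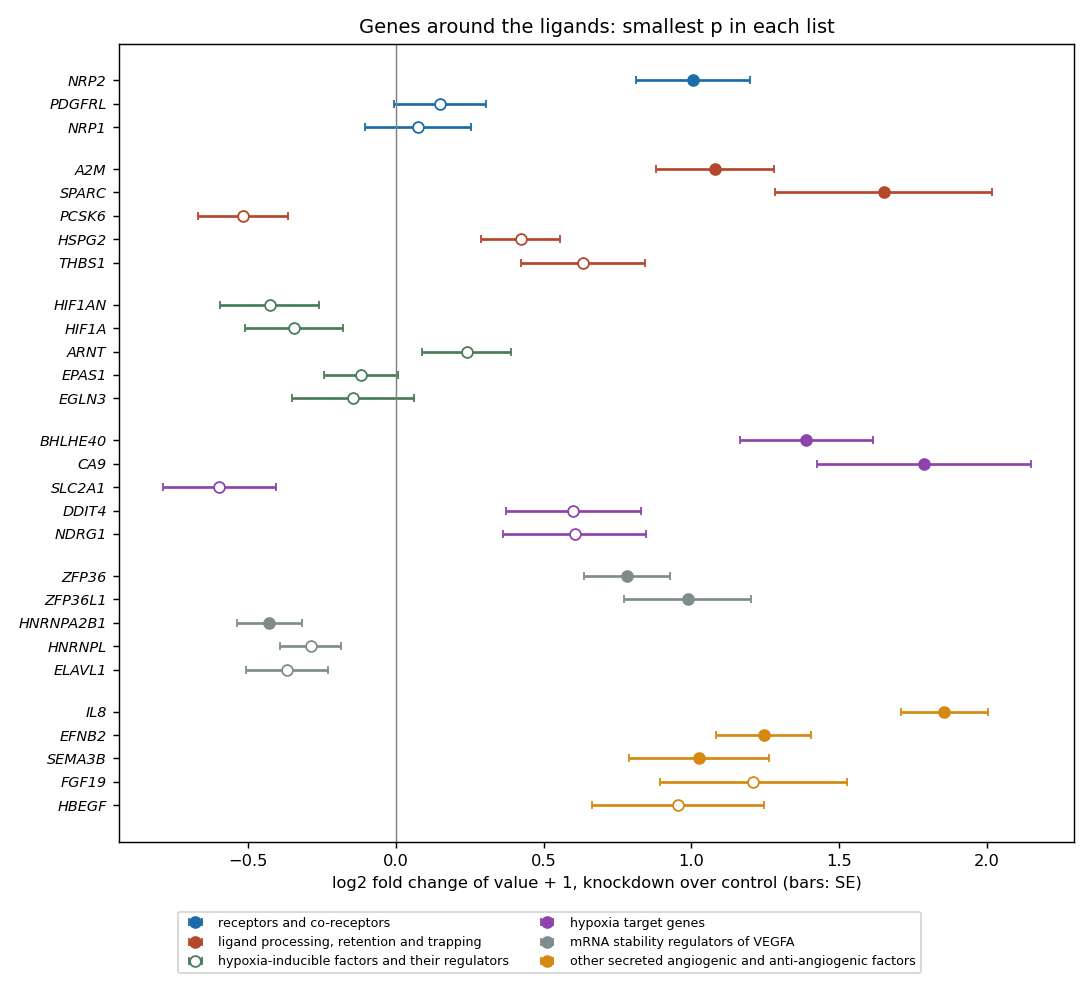
log2 fold change of value + 1 (horizontal axis, knockdown over control, bars for the SE) of up to 5 genes with the smallest p in each list around the ligands; a filled circle marks an adjusted p below 0.05. NRP2 (1.00), A2M (1.08), SPARC (1.65), IL8 (1.85) and EFNB2 (1.24) lie to the right, HNRNPA2B1 (-0.43) to the left, and no gene of the hypoxia-inducible factors is filled.

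The genes whose pattern over the 6 libraries was most like that of a ligand gene were found by Pearson's r of log2(value + 1), among 6 points that share the group difference and the scaling of each library. For PDGFA these were CD276 (r = 0.997), which encodes the immune checkpoint protein B7-H3, RSRC2 (r = 0.996) and the collagen gene COL11A1 (r = 0.995). For VEGFA they were SLC35E2B (r = 0.998), SPPL2B (r = 0.997), an intramembrane protease gene, and MYO9B (r = 0.997), a myosin gene. SLC35E2B, like VEGFA, was at 7.82 in knockdown replicate 1, at 12.56 and 12.83 in knockdown replicates 2 and 3, and at 7.90 to 9.11 in the control libraries. For the other 6 ligand genes the 18 genes so chosen had r from 0.953 to 0.999, and 0 of the 18 were called. With 7057 candidate genes and 6 points such values arise readily, and they describe these libraries only.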

How the data were processed

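Total RNA of Huh7 cells was made into libraries with an Illumina TruSeq kit, per the labels' protocols. Group and replicate number of the 6 libraries came from their titles. Nothing in the labels says that the libraries are separate cultures, so the p-values cover library-to-library spread, which may be technical. The authors deposited length-scaled values treated here as FPKM, although the file names no unit. The submitters' processing notes name RSEM 1.1.17 and Bowtie2 2.2.6 among other tools, and mm10, a mouse build, although the gene IDs are human, so no coordinates are given for the measured genes.

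The ligand genes and all lists were chosen with earlier results of these data known. Log2(value + 1) was tested with limma 3.58.1 in R 4.3.3 (mean-variance trend, robust moderation, two-sided, Benjamini-Hochberg over all 13696 genes that reached 1 in 3 or more libraries); the code was also tested on simulated data. Such fold changes understate the change of low genes. Named were VCAN, the ligand genes, up to 5 tested genes with the smallest p per list, markers of other cell types at 1 or more in some library, and the 3 most similar genes per ligand gene among tested genes with a mean log2 value of at least 3 (those of 6 ligand genes are summarised). FIGF, FURIN, ALB, AFP, receptors below the filter and absent markers were named outside this rule, after their values were seen. Read totals were not given in the sources used here, so no counting intervals were computed. The step of 1 read was estimated from genes of 800 to 1300 bases with 1 transcript in GENCODE release 29. Alternatives were a pseudocount of 0.1, no filter, quantile normalization, rescaling without mitochondrial genes, the replicate number as a block, limma without trend and robust moderation, and each library left out. A gene of the list of other secreted factors is not reported here and was left out of that list's counts.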

Additional observations from a re-analysis of the deposited data

How the results depend on the processing

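Of 13696 genes, 1107 were called, 568 higher and 539 lower; the total was 221 with no filter on low values, 727 without trend and robust moderation, and 56 to 3284 with 1 library left out (56 without control replicate 2, 3284 without knockdown replicate 1). Rescaling without mitochondrial genes gave 680 higher and 223 lower. The number of ligand genes called was 1 in each of the 6 alternatives that kept all libraries, and 0 to 2 with 1 library left out. The log2 fold change of PDGFA was then 0.79 to 0.95, that of VEGFA 0.19 to 0.43 and that of PDGFD -0.22 to 0.071, reversed without control replicate 3 (0.0026) or knockdown replicate 3 (0.071). VEGFB, PDGFB and PDGFC kept a positive and VEGFC and PGF a negative estimate in all 12 alternatives, with no call. The pairs with groups apart numbered 12 with a pseudocount of 1, and 13 to 17 with 1 library left out; the shares numbered 5 to 6. Fewer libraries make separation easier.

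Correlations of deviations between same-numbered libraries were small and positive, at 0.05, 0.10 and 0.14 for numbers 1, 2 and 3. Those between different numbers ran from -0.21 to 0.09. Knockdown replicates 2 and 3 correlated best with the control of the same number, and knockdown replicate 1 with control replicate 2 (0.09). The main test did not take the numbers as pairs, and these values do not settle whether they are. With the replicate block 861 genes were called, and PDGFA alone among the ligand genes (log2 fold change 0.87, limma adjusted p = 0.0403). Depth limits the low genes, PGF and PDGFD and the receptors, most.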
